A study of Mus musculus with 2 samples.

Results

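Cycling plasmablasts of the mouse small intestine were examined: cells that carry the transcripts of an antibody-secreting cell together with those of cell division. The members were chosen by their measured transcripts: a barcode was a member when it had at least 15% of its unique molecular identifiers (UMIs, each 1 captured transcript) on the immunoglobulin constant genes and Jchain, at least 1 UMI each of Xbp1, Mki67 and Top2a, and 0 UMIs of Cd3d, Cd3e and Cd3g. Among 25120 cells that passed the quality limits, 1751 met the rule. Of these, 1002 came from the F/F library, with 12594 cells, and 749 from the CD4-Cre library, with 12526 cells. The F/F group was Aster-A F/F, mice with a loxP-flanked gene for the sterol transporter Aster-A (Gramd1a), and the CD4-Cre group was CD4-Cre; Aster-A F/F, which carries the same floxed gene and a Cre recombinase under control of Cd4, a gene of T cells. All mice were female littermates of 10 to 12 weeks that had been fasted for 16 h and given olive oil by gavage 2 h before collection. Lamina propria cells that were alive, CD45+ and negative for EPCAM, Ter119 and CD31 were sorted, 100000 from each of 3 mice, and pooled within a genotype. Each genotype was therefore 1 droplet library of 1 pool, mice cannot be told apart, and the intervals given (exact, 95%) cover counting error only. No difference between the 2 libraries could be tested against variation between mice.

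Plasmablasts are the dividing stage between an activated B cell and a plasma cell, the non-dividing cell that secretes antibody. In the gut most of them secrete IgA, and the transcription factors Irf4, Prdm1 and Xbp1 shut down the B cell program and enlarge the secretory machinery. Cell division is driven by 2 waves of transcription, an earlier one through E2F factors that supplies the DNA replication genes and a later one through the MuvB, B-Myb and FoxM1 complexes that supplies the mitosis genes, in which a promoter element called CHR takes part.

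Mki67, a protein that coats mitotic chromosomes (chromosome 7:135689784-135716361, minus strand, GRCm38), had 8.81 UMIs per member in F/F and 9.41 in CD4-Cre, and Top2a, the topoisomerase that untangles replicated DNA (chromosome 11:98992943-99024189, minus strand), had 8.31 and 8.73. Both genes chose the members, so these levels are a description. The other markers fixed for the cells were Xbp1, with 28.4 and 21.6 UMIs per member, Ly6d, a small membrane-anchored surface protein, with 38.5 and 38.3, and Ccr10, a receptor that guides IgA cells to mucosal surfaces, with 12.5 and 11.2. At an equal depth of 3000 UMIs outside immunoglobulin genes, 90.3% (88.3% to 92%) of the F/F members and 91.9% (89.8% to 93.8%) of those in CD4-Cre had a Ly6d UMI and 80.6% and 80.7% a Ccr10 UMI. The same shares were 9.97% and 8.15% for Ly6d, and 3.6% and 2.15% for Ccr10, in barcodes with macrophage complement genes, which set the level that free RNA gives. Without thinning, Ly6d was seen in 97.8% and 98.1% of members at a median of 17832 and 16007 such UMIs, and in 17.7% and 15.8% of the macrophage barcodes at 5163 and 5016. Non-cycling plasma cells, described below, had these 2 transcripts at like shares (84.8% and 82.9% for Ly6d, 80.7% and 79% for Ccr10), so Ly6d and Ccr10 mark plasma cells of this tissue and not the dividing ones among them, and Mki67, Top2a and Xbp1 hold by the rule.

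Promoters of some mitosis and replication genes carry the letters of these 2 waves, and all the examples shown hold them. Stretches of 160 bases before the start of transcription are shown for 3 mitosis genes, with the CHR letters TTTGAA in capitals (in Ube2c they lie on the other strand and read TTCAAA), and for 2 replication genes, with the E2F letters TTTGGCGC (GCGCCAAA on the other strand) in capitals. They were taken from RefSeq on GRCm38.p6, read 5′ to 3′ on the strand of the gene. The positions are chr2:164769769-164769928 (plus) for Ube2c, chr4:118437344-118437503 (minus) for Cdc20, chr10:69352913-69353072 (minus) for Cdk1, chr1:128359706-128359865 (minus) for Mcm6 and chr8:75109349-75109508 (plus) for Mcm5.
Ube2c: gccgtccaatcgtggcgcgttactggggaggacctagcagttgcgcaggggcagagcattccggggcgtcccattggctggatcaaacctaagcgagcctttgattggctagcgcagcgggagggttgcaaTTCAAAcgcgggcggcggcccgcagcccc
Cdc20: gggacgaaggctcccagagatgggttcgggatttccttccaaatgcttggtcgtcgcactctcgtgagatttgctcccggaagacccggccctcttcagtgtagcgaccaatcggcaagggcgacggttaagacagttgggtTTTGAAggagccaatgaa
Cdk1: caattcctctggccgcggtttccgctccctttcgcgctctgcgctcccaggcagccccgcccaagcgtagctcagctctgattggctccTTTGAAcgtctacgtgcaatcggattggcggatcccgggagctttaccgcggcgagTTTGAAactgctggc
Mcm6: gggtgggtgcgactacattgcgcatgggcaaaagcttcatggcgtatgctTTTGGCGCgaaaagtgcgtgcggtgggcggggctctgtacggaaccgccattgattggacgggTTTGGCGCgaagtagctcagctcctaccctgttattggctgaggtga
Mcm5: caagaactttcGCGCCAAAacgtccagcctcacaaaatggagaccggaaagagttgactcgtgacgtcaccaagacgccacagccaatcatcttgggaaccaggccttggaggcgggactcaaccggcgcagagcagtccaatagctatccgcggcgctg
The CHR letters began 29 bases before the start in Ube2c, 18 in Cdc20, and 71 and 15 in Cdk1. The E2F letters began 110 and 47 bases before the start in Mcm6 and 149 in Mcm5. Over windows of 300 bases (250 before the start and 50 after it, searched on both strands), 17.9% of all 32851 windows held TTTGAA, against 41 of 60 windows (68.3%) of the mitosis list and 5 of 40 (12.5%) of the replication list, for which 55 of 66 and 33 of 46 genes had a window. An E2F match, by the letters TTTCCCGC or by TTTGGCGC, was in 1.56% of all windows, in 11 of 40 (27.5%) of the replication list and in 3 of 60 (5%) of the mitosis list. CCAAT was in 37.4% of all windows, in 78.3% of the mitosis windows and in 57.5% of the replication windows. Over all windows, 47 matches of TTTGAA overlapped one of CCAAT, 2 of CCAAT overlapped the E2F letters, and 0 of TTTGAA overlapped the E2F letters. A match describes the letters and not the binding of a factor.

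Members were large in RNA, and antibody transcripts were a smaller share of it than in non-cycling plasma cells. Their median was 25888 UMIs in F/F (from 1771 to 105451) and 24479 in CD4-Cre (from 1864 to 93264), against 16296 and 16687 in non-cycling plasma cells, which met the same rule with 0 UMIs of Mki67 and of Top2a (5648 and 4617 cells). They had 3678 and 3536 genes per cell at the median, against 2047 and 2064. UMIs outside immunoglobulin genes averaged 19017 and 17278 per member, 2.8 and 2.59 times the 6797 and 6669 of non-cycling cells. Immunoglobulin UMIs averaged 9327 and 9467 per member, 0.929 and 0.891 times the 10043 and 10625 of non-cycling cells. The immunoglobulin share of a member was therefore 30% and 33.1% at the median, against 59% and 60.7%, with nearly the same amount of antibody transcript per cell in a larger pool of other RNA. The remaining plasma cells, with UMIs of only Mki67 or only Top2a (1611 and 1374), lay between, at 51.6% and 54.5%. The rule itself favours deep barcodes as members, which needed UMIs of both genes, and shallow ones as non-cycling cells. Of the members deep enough to be thinned to 5000 UMIs, 50.2% in F/F and 52.1% in CD4-Cre still met the rule. The part of this choice in the contrasts of RNA amount and immunoglobulin share was not tested.

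**Figure D1:**
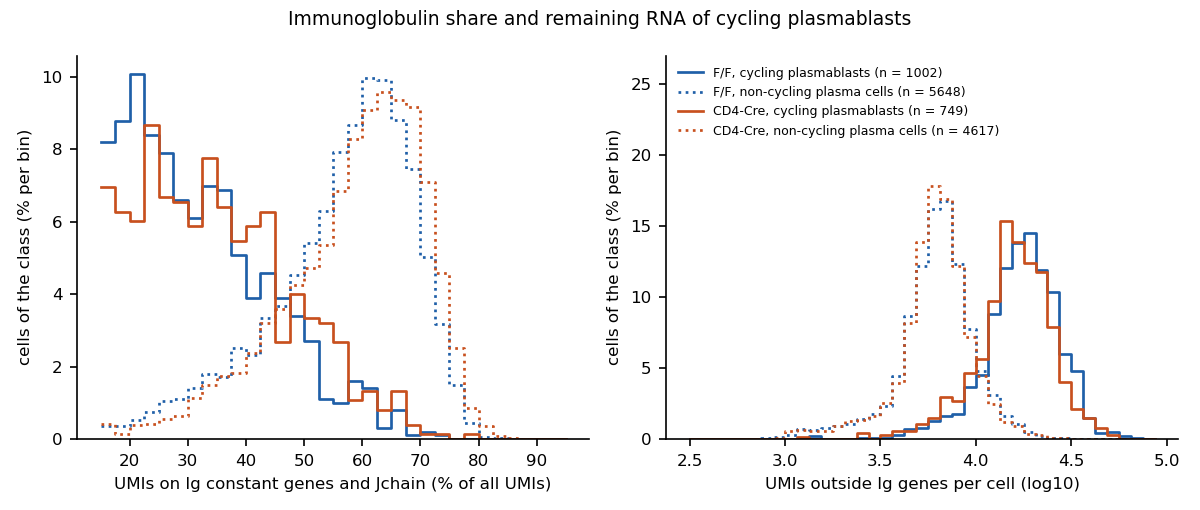
Histograms of the share of UMIs on the immunoglobulin constant genes and Jchain (left, percent of all UMIs of a cell) and of the UMIs outside immunoglobulin genes per cell (right, log10 scale), for cycling plasmablasts (solid lines) and non-cycling plasma cells (dotted lines) of the F/F (blue) and CD4-Cre (orange) libraries, as percent of the cells of a class per bin. Members sit at lower immunoglobulin shares and higher other RNA than non-cycling cells in both libraries, and the left edge at 15% is the limit of the rule.

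Levels below are UMIs per 1000000 UMIs outside immunoglobulin genes (CPM) unless UMIs per cell are named, and a log2 ratio compares members with non-cycling plasma cells of the same library on the first scale. Relative to that scale, UMIs per cell shift every log2 ratio up by 1.48 in F/F and 1.37 in CD4-Cre, and CPM of all UMIs by 0.73 and 0.74. A gene is called higher or lower when it passes 1.5-fold in the same direction in both libraries. Of 14900 genes with enough UMIs, 10.1% (1507) were higher and 18.3% (2730) lower, at a median log2 ratio of -0.18 and -0.17. On the per cell scale 11271 genes were higher and 82 lower, and of the 2730 only 399 were also lower per cell in both libraries. The split between higher and lower is thus a matter of scale, 35.6% higher of all called genes on the main scale, 92% in CPM of all UMIs and 99.3% per cell. Every list median given below that is negative in CPM is positive per cell, and in CPM of all UMIs as well except for the immediate early list and, in F/F, the interferon list. Because Mki67 and Top2a chose the members, every gene of this contrast is described and none is tested.

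DNA replication and mitosis genes were higher in members almost without exception. Of the 46 genes of DNA replication, 45 were higher, at a median log2 ratio of 3.16 in F/F and 3.36 in CD4-Cre, and their summed level was 3147 and 3500 CPM against 585 and 594. Of the 66 genes of G2 and mitosis, 65 were higher, at a median of 5.02 and 4.88, and their summed level was 8165 and 7998 against 611 and 620. The exceptions were Ung, a repair enzyme that removes uracil from DNA, with log2 ratios of 0.55 and 0.96, and Pttg1, the securin that inhibits separase, with 0.03 and -0.07. In barcodes of 10 to 100 UMIs, which hold free RNA, the same sums were 1264 and 1258 for replication and 1800 and 1776 for mitosis, lower than in members and higher than in non-cycling plasma cells.

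Among replication genes, the helicase subunit Mcm5 was at 76.5 CPM in F/F members and 75.2 in CD4-Cre members, against 2.58 and 3.35 in non-cycling cells. The helicase subunit Mcm6 was at 79.5 and 97.7 against 14.4 and 16.6. Rrm2, the regulated subunit of the enzyme that makes deoxyribonucleotides, was at 193 and 232 against 5.63 and 7.47. Pcna, the clamp of the replication fork that repair also uses, was at 193 and 215 against 51.8 and 51. Its ratio was the smallest of these 4 genes.

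Of the 12 genes with the largest consistent ratio on the high side, most act in mitosis. Hmmr, a spindle protein, had log2 ratios of 7.28 (6.77 to 7.84) in F/F and 6.99 (6.5 to 7.51) in CD4-Cre, at 126 and 144 CPM against 0.808 and 1.14. The others were Cit, Tpx2, Neil3, Nusap1, Ube2c, Pclaf, Cdca8, Ccna2, Kif4, Birc5 and Shcbp1, with log2 ratios from 5.8 to 7.32. Ube2c, the ubiquitin carrier of the anaphase promoting complex, was at 570 and 528 CPM against 6.15 and 5.55. Pclaf, a partner of the replication clamp, was at 444 and 492 against 4.79 and 4.68, and the DNA repair glycosylase Neil3 at 60.8 and 67.6 against 0.547 and 0.552, so genes of replication and repair were among the 12 as well. The gene bodies lie at chr11:40701395-40733422 (Hmmr, minus), chr2:164769898-164778822 (Ube2c, plus) and chr9:65890237-65903266 (Pclaf, plus).

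Regulators of the 2 waves were higher too, with large ratios. Of 30 cell cycle control genes with enough UMIs, 14 were higher and 3 lower. Foxm1, the transcription factor of the mitosis wave, was at 32.2 and 37.6 CPM against 1.54 and 1.49, and Mybl2 (B-Myb), its partner, at 18.6 and 19.1 against 1.04 in both libraries. The late repressor E2f8 was at 17.9 and 21.6 against 0.313 and 0.455, a larger ratio than for the activator E2f1, at 26 and 30 against 11.1 and 11.5. At an equal depth of 3000 UMIs outside immunoglobulin genes, 8.42% and 11.9% of members had a Foxm1 UMI, against 0.459% and 0.466% of non-cycling cells and 1.39% and 0.429% of macrophage barcodes (unthinned 42.8% and 42.3% against 1.01% and 0.975%, and 2.13% and 0.66%). Other control genes had small ratios. Cdk4, the kinase of G1 cyclins, had log2 ratios of 0.83 and 0.85, Ccnd2, a D cyclin, 0.06 and -0.2, and Myc, the growth factor-induced transcription factor, 0.18 and -0.02 at 6.93 and 3.4 CPM. Btg2, an inhibitor of division, was called lower at -0.66 and -0.6, but was higher in CPM of all UMIs (0.07 and 0.14) and per cell (3.18 and 2.9 UMIs against 1.8 and 1.7).

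Histones and chromatin proteins were higher as well. All 21 histone variant and chromatin genes of dividing cells were called higher, at a median of 2.28 and 2.2, and summed to 14041 and 15128 CPM against 3290 and 3573. H2afz, a variant histone, was at 1829 and 2172 CPM against 333 and 374, Hmgb2, a DNA-bending protein, at 1400 and 1377 against 61.5 and 59.8, and Stmn1, which destabilises microtubules, at 461 and 570 against 14.1 and 16.9. Of 63 clustered histone genes, 47 were higher in CPM and 2 (Hist1h4m and Hist1h4n) lower in CPM but higher per cell, at a median of 1.47 and 1.6. Hist1h2ap reached 1237 and 1409 CPM against 109 and 103, and Hist1h1b 539 and 667 against 51.4 and 48. The linker histone Hist1h1c was close to equal, at 337 and 329 against 366 and 347. Clustered histone transcripts mostly lack the poly(A) tail that a 3′ library captures, and these genes are near copies of each other, so their levels are less certain than the others.

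Growth metabolism was higher in part. Of 29 nucleotide and one-carbon genes, 14 were higher and 2 lower (median 0.61 and 0.57), among the higher ones Dctpp1, which clears aberrant nucleotides, at 202 and 192 CPM against 37.2 and 38, and the serine pathway genes Psat1 (68.9 and 59.7 against 14.2 and 14) and Shmt1 (17.2 and 12.7 against 1.95 and 1.49). Of 18 glycolysis genes, 9 were higher and 1 lower, with Gapdh at 1409 and 1352 against 606 and 603. Of 24 ribosome biogenesis genes, 15 were higher and 0 lower, with the nucleolar protein Ncl at 671 and 668 against 308 and 317. Respiratory chain genes and ribosomal proteins were shifted little, at medians of 0.29 to 0.32. Of 91 respiratory chain genes 6 were higher and 3 lower, and of 81 ribosomal proteins 3 were higher and 0 lower.

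Sterol genes bear on the gene the study deleted, whose protein moves cholesterol from the plasma membrane to the endoplasmic reticulum. Of 24 cholesterol synthesis and SREBP2 genes, 11 were higher and 0 lower in members (median 0.51 and 0.4). Idi1, an enzyme of the mevalonate pathway, was at 44 and 39.6 CPM against 15 and 14.7. Gramd1a itself (chr7:31130127-31155896, minus strand) was at 14.1 CPM in members of both libraries, against 22.5 and 23.1 in non-cycling cells. Its log2 ratio was -0.67 and -0.71 on the main scale, and turned positive, to 0.06 and 0.03, on the scale of CPM of all UMIs. Per cell it was higher, at 0.268 and 0.244 UMIs against 0.153 and 0.154. The log2 ratio of CD4-Cre over F/F in members was 0.00. The Cre was driven by Cd4. The sources used here do not give which part of Gramd1a is floxed, so its 3′ tag cannot check the deletion. The family members Gramd1b (0.997 and 1.08 CPM) and Gramd1c (4.25 and 7.03) were detected with few UMIs.

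**Figure D2:**
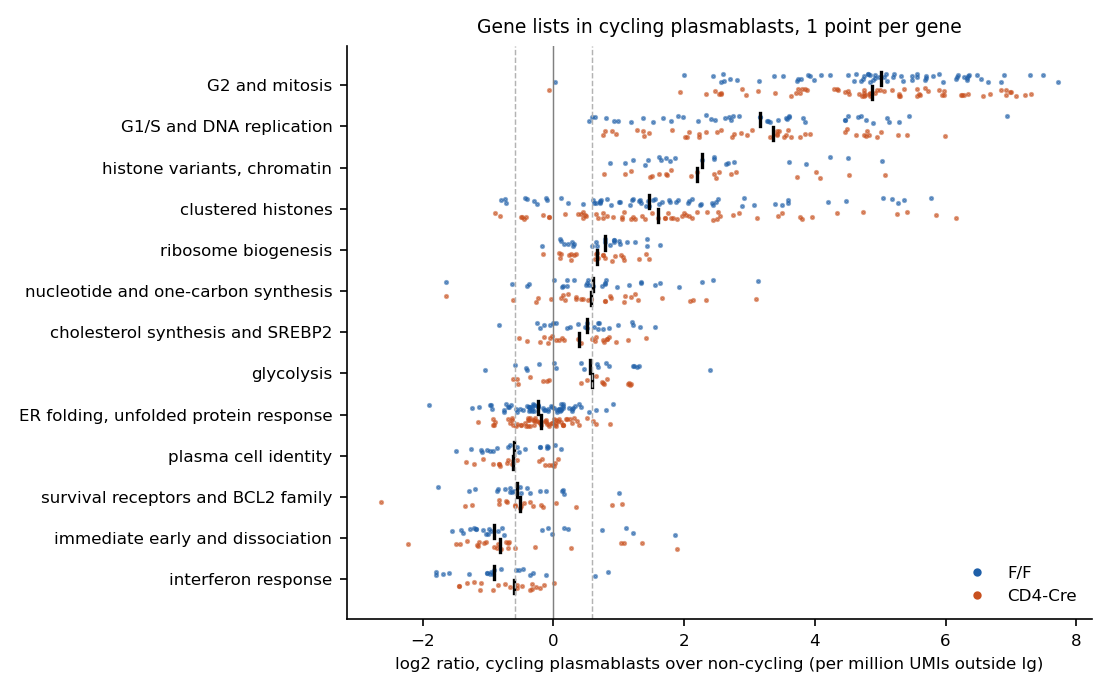
Log2 ratios of cycling plasmablasts over non-cycling plasma cells, 1 point per gene, for 13 gene lists and the F/F (blue) and CD4-Cre (orange) libraries, with list medians as black bars and dashed lines at 1.5-fold, on CPM outside immunoglobulin genes. Mitosis and replication genes lie far to the right, with medians of 5.02 and 4.88 and of 3.16 and 3.36, and plasma cell identity, survival, immediate early and interferon genes have medians left of 0.

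Plasma cell genes made up a smaller part of the RNA of members than of non-cycling cells, although members held more of most of them per cell. Of 20 plasma cell identity genes, 0 were higher and 10 lower in CPM (median -0.61 and -0.62), while the summed level per cell was 250 and 240 UMIs in members against 112 and 115. Irf4, at 115 and 96.7 CPM against 231 and 171, and Prdm1, at 78.1 and 61.2 against 148 and 100, were lower in CPM and higher per cell (Irf4 at 2.19 and 1.67 UMIs against 1.57 and 1.14). Sdc1 (CD138), the surface proteoglycan used to sort plasma cells, was at 227 and 222 against 487 and 470 CPM, and at 4.32 and 3.84 against 3.31 and 3.13 UMIs per cell. Mzb1, a chaperone of antibody assembly, kept its share, at 6386 and 6983 against 6283 and 7056.

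Most genes of the secretory machinery passed 1.5-fold in neither direction. Of 62 genes of translocation into the endoplasmic reticulum, folding and the unfolded protein response, 3 were higher and 10 lower in CPM (median -0.23 and -0.19), while their sum per cell was 1056 and 1049 UMIs against 425 and 453. The 3 higher ones were Ssr2 at 1235 and 1284 CPM against 656 and 702, Ssr1, a translocon protein like it, at 324 and 379 against 207 and 241, and Rpn1, of the glycosylation complex, at 505 and 598 against 289 and 392. The lower ones included genes of stress-induced degradation and signalling, Herpud1 (450 and 511 against 1071 and 1133) and Derl3 (487 and 534 against 951 and 1013), both higher per cell (8.56 and 8.83 against 7.28 and 7.56 for Herpud1). Letters CCACG, the core of sites of the Xbp1 and Atf6 kind, were in 42 of 59 promoter windows of this list (71.2%), in 50.4% of the windows of tested genes with at least 50 CPM and in 32.8% of all windows.

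A small set of genes was lower in members on both scales. All 12 genes with the largest consistent ratio on the low side were also lower per cell in both libraries. Prg2, known as an eosinophil granule protein (chr2:84980461-84983632, plus strand), was at 57 and 61.4 CPM against 387 and 380, and at 1.08 and 1.06 UMIs per cell against 2.63 and 2.53. Slpi, a secreted protease inhibitor of mucosal surfaces (chr2:164354070-164389095, minus strand), was at 490 and 582 against 2428 and 2465, and at 9.33 and 10.1 UMIs per cell against 16.5 and 16.4. Ly6c2, a surface protein of the Ly6 family, was at 252 and 289 against 828 and 996, and at 4.8 and 5 against 5.63 and 6.64 per cell. The others were Nbea, Ypel3, Lgals3bp, Gm15564, Fam129a, Apoe, Tmem176a, Eml6 and Kcnmb4os2, with log2 ratios from -2.38 to -1.71. At equal depth, 39.8% and 40.3% of members had a Slpi UMI against 72.5% and 72.8% of non-cycling cells, with 9.14% and 7.73% in macrophage barcodes (unthinned 65.8% and 68% against 78.9% and 80%, and 14.3% and 13.9%). Prg2 was seen in 15.3% and 13.6% of members against 51.2% and 50.2%, with 1.94% and 1.29% in macrophage barcodes (unthinned 47.5% and 44.6% against 66.4% and 64.8%, and 2.99% and 2.31%).

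Survival and homing genes are read beside the 10.1% of all genes that were higher and the 18.3% that were lower. Of 20 survival genes, 7 were lower and 1 higher in CPM (median -0.56 and -0.51). Il5ra, the interleukin 5 receptor, had the largest ratio, at 8.87 and 6.49 CPM against 30.3 and 40.5, and was lower per cell as well (0.169 and 0.112 UMIs against 0.206 and 0.27). Bcl2, which blocks cell death, was at 59.7 and 55.6 against 146 and 142, and about equal per cell (1.13 and 0.961 UMIs against 0.994 and 0.949). Bak1, which promotes cell death, was the 1 higher gene, at 31.3 and 34.1 against 15.7 and 18.3. Of 21 homing genes, 1 was higher and 4 lower in CPM. The gut integrin chain Itgb7 was lower in CPM (113 and 127 against 207 and 237) but higher per cell (2.15 and 2.19 UMIs against 1.41 and 1.58), and the mucosal receptors Ccr10 (656 and 648 against 811 and 781) and Ccr9 (84.9 and 62.5 against 94.7 and 79.4) did not pass 1.5-fold. In the list of Ly6, S100 and surface genes, 3 of 23 were higher and 9 lower. Vim, an intermediate filament protein of motile cells, was at 201 and 251 against 88.4 and 114, and Crip1 at 769 and 589 against 353 and 308, while Ly6d was close to equal in CPM (2025 and 2217 against 1972 and 2030).

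B cell transcripts were rare in members. Ms4a1 (CD20) was at 6.82 and 9.89 CPM against 2.53 and 2.92. At equal depth, 1% (0.482% to 1.83%) and 1.74% (0.932% to 2.97%) of members had an Ms4a1 UMI against 0.688% and 0.745% of non-cycling cells, intervals that overlap (0.482% to 0.952% and 0.51% to 1.05%), with 0 of the macrophage barcodes, which allows up to 1.02% and 1.57%. Unthinned, the Ms4a1 shares were 6.79% and 7.34% against 1.24% and 1.56%, and 0% and 0.99% in macrophage barcodes. Of 23 B cell genes, 4 were higher and 5 lower. Cd79a, a signalling chain of the B cell receptor, was among the lower ones, at 318 and 346 CPM against 982 and 1077, and was lower per cell too (6.05 and 5.98 against 6.68 and 7.18). Mybl1, a germinal centre transcription factor, was at 4.36 and 5.56 CPM against 0.703 and 0.487. Cd74, the invariant chain of MHC class II, was at 1781 and 1923 against 4733 and 5277 CPM, and on the per cell scale at 33.9 against 32.2 in F/F and at 33.2 against 35.2 in CD4-Cre. Of 10 MHC class II presentation genes, 1 was higher, 2 were lower and 7 were called in neither direction. H2-Aa of that list was at 174 and 218 CPM against 175 and 205. At equal depth, 26.3% and 30.7% of members had an H2-Aa UMI against 18.3% and 21.6% of non-cycling cells.

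Most genes that respond to handling, and part of those that respond to interferon, were lower in CPM as well. Of 24 immediate early and dissociation genes, 15 were lower, among them Fos (111 and 131 against 295 and 288) and Junb (29.6 and 27.2 against 77.5 and 72.9), of which Fos was higher per cell (2.11 and 2.27 against 2 and 1.92) and Junb at 0.563 and 0.47 UMIs against 0.527 and 0.486. The 4 higher ones were chaperones, with Hsp90aa1 at 781 and 945 against 214 and 254 and Hspa8 at 1602 and 1777 against 740 and 838. With these abundant transcripts included, the summed level of the list was higher in members, at 4082 and 4533 CPM against 3836 and 3838. Of 20 interferon genes, 8 were lower and 0 higher in CPM, such as Bst2 at 480 and 511 against 934 and 975, which was higher per cell (9.13 and 8.84 against 6.35 and 6.5).

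Members differed among themselves along their immunoglobulin share. They were split at 25% and 40%, giving 355, 396 and 251 members in F/F and 210, 290 and 249 in CD4-Cre, with 94 and 76 members within 1 percentage point of a limit. The replication list was lower in each higher band, with a median of 35.4 and 43.8 UMIs per 10000 outside immunoglobulin genes in the lowest band, 28.3 and 30.4 in the middle and 16.5 in both libraries in the highest. The mitosis list had no such order, with 84.1 and 76.4, then 90.8 and 89.4, then 65.9 and 72.8. Across members, Spearman's rho of the immunoglobulin share was -0.4 and -0.51 with the replication list and -0.11 and -0.09 with the mitosis list, over 1002 and 749 cells of 1 library each that share the denominator of UMIs per cell.

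Several genes that were lower in members than in non-cycling cells were higher in each higher band. Slpi was at 171 and 218 CPM in the lowest band, 509 and 568 in the middle and 1127 and 1103 in the highest, against 2428 and 2465 in non-cycling cells, and per cell at 3.75 and 4.78, 9.78 and 9.8, and 16.5 and 14.8 UMIs. Prg2 went from 23.4 and 20.9 through 49.7 and 46.5 to 143 and 139, and Ly6c2 from 100 and 101 through 278 and 313 to 523 and 512. Cd74 went from 1243 and 1207 through 1773 and 1837 to 2938 and 3035, and Sdc1 from 174 and 161 through 237 and 213 to 318 and 320. Ms4a1 went the other way, from 10 and 19.8 through 6.18 and 5.99 to 1.36 and 2.1, while Ly6d had no order common to both libraries (2145 and 2346, 1921 and 2265, 1985 and 1967). The median number of UMIs outside immunoglobulin genes was also lower in each higher band, going from 20799 and 20788 through 17066 and 15694 to 13236 and 12553, so the bands differ in depth, and its part in the order was not tested.

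**Figure D3:**
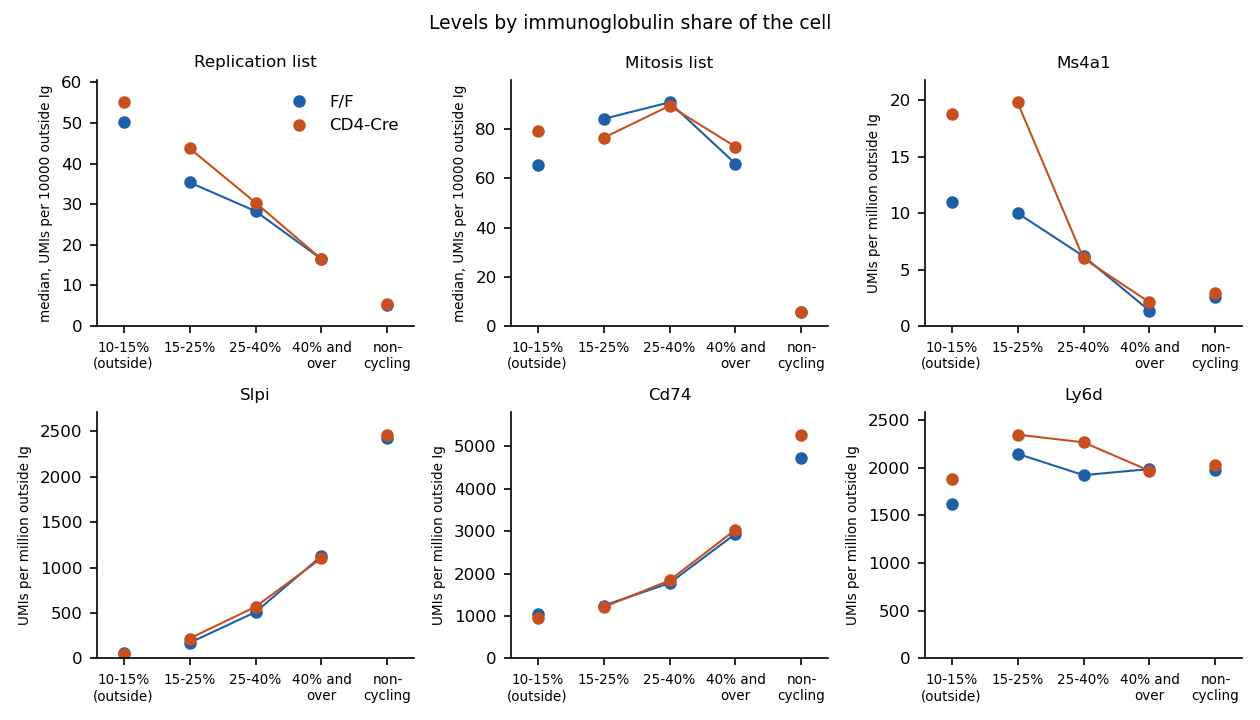
Levels in cycling plasmablasts by band of immunoglobulin share (points joined by lines), in barcodes just outside the rule (10 to 15%) and in non-cycling plasma cells, for the F/F (blue) and CD4-Cre (orange) libraries, as the median UMIs per 10000 outside immunoglobulin genes (replication and mitosis lists) or CPM (genes). The replication list goes down and Slpi and Cd74 go up with the immunoglobulin share in both libraries, for Slpi from 171 and 218 to 1127 and 1103 CPM.

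Split instead by the ratio of mitosis to replication transcripts of each cell into 3 equal parts, the 334 and 250 members on the mitosis side had 116 and 113 mitosis UMIs per 10000 at the median and 18.4 and 20.4 replication UMIs, and those on the replication side 30.9 and 34.4 and 46.2 and 50.1. Of all members, 101 and 74 lay within 0.1 (log2) of a limit. Cdc20, which triggers the exit from mitosis, was at 284 and 216 CPM on the mitosis side and 25 and 32 on the replication side, and Mcm5 at 51.3 and 42.7 and at 117 and 121. Slpi and Sdc1 differed less between these sides than between the outer bands of immunoglobulin share. Slpi was at 426 and 585 CPM on the mitosis side and 573 and 582 on the replication side, and Sdc1 at 218 and 202 and at 244 and 238. The median immunoglobulin share was 32.5% and 36.8% on the mitosis side and 28% and 28.5% on the replication side.

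At the lower limit of immunoglobulin share, Ly6d, Slpi and Ly6c2 were lower outside than inside in both libraries, and the replication list was higher. Ms4a1 was close on both sides at few UMIs, 0.276 and 0.493 per barcode outside and 0.3 and 0.52 inside. Its difference was not tested against counting error. The relative drop was larger for Ly6c2 in both libraries, and for Slpi in CD4-Cre, than for Ly6d. In F/F the drop of Slpi was like that of Ly6d. The 170 and 100 members (17% and 13.4%) with 15 to 20% immunoglobulin had Ly6d at 2112 and 2272 CPM, Slpi at 73.5 and 242, Ly6c2 at 86.7 and 79.4, Ms4a1 at 12.9 and 22.2 and a median replication list of 37.6 and 44.9 UMIs per 10000. Just outside, 116 and 67 barcodes with 10 to 15% met every other limit, with Ly6d at 1622 and 1876 CPM, Slpi at 55.9 and 44.4, Ly6c2 at 40.7 and 32.5, Ms4a1 at 11 and 18.8 and a median replication list of 50.2 and 55.1 per 10000. Another 59 and 63 barcodes under 10% had more of the B cell genes, Ms4a1 at 68.5 and 280 and H2-Aa at 1438 and 1960 CPM. Exactly 1 UMI of Mki67 was found in 123 and 105 members and exactly 1 of Top2a in 154 and 137. The 79 and 76 members with exactly 1 UMI of each had a median of 7.81 and 7.13 mitosis UMIs per 10000, near the 5.55 and 5.65 of non-cycling cells and far under the 83.4 and 82.3 of all members. Their Mcm5 (41.2 and 33.6 CPM), Cdc20 (28.6 and 26.8) and median immunoglobulin share (44.7% and 50.4%) lay between those of non-cycling cells and of all members. Barcodes that met the rule but for 1 or more CD3 UMIs numbered 145 and 155, and had Ly6d at 1786 and 1823 CPM.

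RNA of other cell types was a small part of members. The summed level of 12 T cell markers was 38.3 and 53.8 CPM against 74.4 and 91.3 in non-cycling cells and 2937 and 2852 in free RNA, and that of 10 macrophage markers, which include Ly6c2, was 311 and 340 against 975 and 1129. At least 1 UMI of another lineage was found in 29.1% and 29.5% of members, against 22.4% and 24.2% of the shallower non-cycling cells. Pancreatic acinar transcripts summed to 882 CPM in F/F members and 1.39 in CD4-Cre members, and in free RNA to 2128 and 326. Gastric transcripts summed to 18.5 and 95, and in free RNA to 145 and 979. The dendritic, NK and innate lymphoid, neutrophil, enterocyte, erythroid, stromal and mast cell lists each summed to at most 41.4 CPM in members of either library. Barcodes that were kept in both libraries numbered 47, of which 1 was a member in both.

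Between the genotypes, members were a smaller share of all kept cells in CD4-Cre, 5.98% (5.57% to 6.41%) against 7.96% (7.49% to 8.44%), a ratio of 0.752 (0.683 to 0.827). Among plasma cells of the rule, 8261 in F/F and 6740 in CD4-Cre, the shares were closer, 11.1% (10.4% to 11.9%) against 12.1% (11.4% to 12.9%), a ratio of 0.916 (0.832 to 1.01). After every cell was thinned to 5000 UMIs and the rule applied again, they were 6.59% (6% to 7.22%) and 6.58% (6.05% to 7.15%), a ratio of 1 (0.88 to 1.14), with 253 and 331 shallower plasma cells left out. Among kept cells, the thinned shares were 4.85% in CD4-Cre and 5.25% in F/F, closer to each other than without thinning. This left out 3549 and 2460 shallower kept cells. The smaller share of members among kept cells thus came with a smaller share of plasma cells in the whole library, and within plasma cells no difference was detectable at equal depth.

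Few genes differed between the libraries within members. Of 12361 genes with enough UMIs, 5.02% (621) were 1.5-fold higher in CD4-Cre and 4.38% (541) lower, and with a minimum of 100 UMIs these were 101 and 148. Without the 5 cells of each library with the most UMIs of each gene, 570 were higher and 1027 lower, so the balance moved from 53.4% to 35.7% higher. Among the 2734 with at least 100 UMIs and 50 CPM, 0.183% (5) were higher and 0.805% (22) lower, at a median log2 ratio over all 12361 genes of 0.04, with UMIs per cell moving every ratio by -0.14. Of the replication list, 0 of 46 genes passed 1.5-fold in either direction, and of the mitosis list 0 were higher and 1 was lower, Aurka, a spindle pole kinase, at 29.3 CPM in F/F and 17.5 in CD4-Cre. Among the 5 higher genes were the splicing regulator Mbnl1 (log2 0.79), Ly6k (0.82), Gstp1 (0.60) and the gastric gene Tff2. In non-cycling cells the same ratios were 0.83 for Mbnl1, 0.35 for Ly6k and 0.71 for Gstp1, so those of Mbnl1 and Gstp1 were of like size outside the dividing cells.

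The 22 lower genes were in 3 groups. The 9 acinar list genes among them and 2 more, Cpb1, a pancreatic carboxypeptidase with 0 UMIs in CD4-Cre members, and 2210010C04Rik, made up 11. Clustered histones made up 8: Hist2h2bb, Hist1h4n, Hist1h4i, Hist1h2bg, Hist1h3d, Hist1h2ac, Hist1h2bc and Hist1h2bb. The rest were Gm2000, Gm42031 and Snhg1. Of 63 clustered histones with enough UMIs, 16 were lower and 0 higher, at a median of -0.34, and the median in non-cycling cells was -0.36. Hist1h4n was at -0.88 in members and -0.71 in non-cycling cells, Hist1h3d at -0.75 and -0.65, and Hist1h2bc at -0.8 and -0.31. The lower histone level was thus present in cells without Mki67 and Top2a transcripts too.

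**Figure D4:**
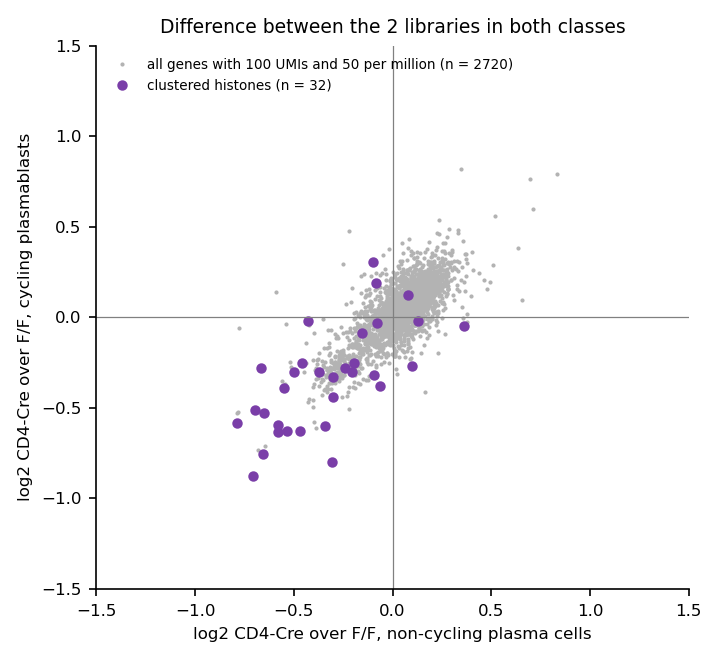
Log2 ratio of CD4-Cre over F/F in cycling plasmablasts (vertical axis) against the same ratio in non-cycling plasma cells (horizontal axis), for genes with at least 100 UMIs and 50 CPM (grey) and the 32 clustered histones among them (purple), with 12 genes outside the axes of 1.5 left out. The histones extend to the lower left, with Hist1h4n at -0.88 and -0.71.

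Heavy chain use was IgA in nearly all members, and IgG was more frequent than in non-cycling cells. A class was assigned where it held at least 70% of the heavy constant UMIs of a cell. IgA held 94.5% (92.9% to 95.8%) of the F/F members and 96.4% (94.8% to 97.6%) of those in CD4-Cre, against 98.7% and 98.5% of non-cycling cells. IgG was assigned to 44 F/F members (4.39%, 3.21% to 5.85%) and 21 CD4-Cre members (2.8%, 1.74% to 4.25%), against 0.885% (0.658% to 1.17%) and 1.04% (0.768% to 1.38%) of non-cycling cells, and 1.49% and 1.24% of the plasma cells with only 1 of Mki67 and Top2a. IgG1 made up most of it in F/F, with 33 members (3.29%, 2.28% to 4.59%) against 4 (0.534%, 0.146% to 1.36%) in CD4-Cre, while IgG2b was found in 11 (1.1%) and 16 (2.14%). IgM was assigned to 2 and 4 members. Kappa light chains held 95.8% and 94.4% of members and lambda 1.9% and 3.74%. How these cells divide among the 3 pooled mice cannot be told.

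Variable segments of the antibody genes were read in most members. A segment was assigned where it had at least 10 UMIs and 50% of the UMIs of its kind in a cell, which gave a heavy segment to 758 F/F and 485 CD4-Cre members over 77 and 78 distinct segments. Ighv1-19 (chr12:114708648-114709135, minus strand, an exon of the heavy chain locus) led in F/F, with 99 of 758 members (13.1%, 10.7% to 15.7%) against 86 of 4558 non-cycling cells (1.89%, 1.51% to 2.32%). In CD4-Cre it had 10 of 485 members (2.06%, 0.993% to 3.76%) against 57 of 3598 (1.58%, 1.2% to 2.05%). Its level was 123 CPM of all UMIs in F/F members, 36 in F/F non-cycling cells and 15.5 in free RNA, and 19.7, 32.1 and 14.1 in CD4-Cre. Near-identical segments of the Ighv1 family may share reads.

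The Ighv1-19 members of F/F carried many light chains. Of the 99, 95 had a kappa segment, of 25 kinds, led by Igkv17-121 and Igkv5-48 with 16 each and Igkv8-27 with 12. By class, 79 were IgA, and of the 29 IgG1 members with a heavy segment 18 used it (62.1%, 42.3% to 79.3%), against 11 of 24 IgG1 non-cycling cells. Their median immunoglobulin share was 25.5%.

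Among kappa segments, Igkv12-46 was the most frequent in members of both libraries, at 11.3% in each (9.29% to 13.6% and 8.96% to 14%), against 6.6% and 7.22% of non-cycling cells, whose leading segment, Igkv10-96, was at 8.59% and 4.73% in members against 14.7% and 8.98%. Igkv6-32 was at 7.77% in CD4-Cre members and 1.92% in F/F members. Both a heavy and a kappa segment were assigned to 676 and 437 members, in 324 and 270 distinct pairs. Most of these members, 562 and 340, had a pair also found in a non-cycling plasma cell of the library, and 465 and 243 were in pairs held by at least 2 members. The pair of Ighv7-3 and Igkv1-110 was held by 18 members and 34 non-cycling cells in F/F, and that of Ighv1-59 and Igkv6-32 by 18 and 59 in CD4-Cre. Pairs of segments do not resolve clones, since the junctions were not read. Lambda segments were left out, because Iglv1 led in 349 and 280 members of which 91.1% and 86.1% were kappa by constant gene.

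**Figure D5:**
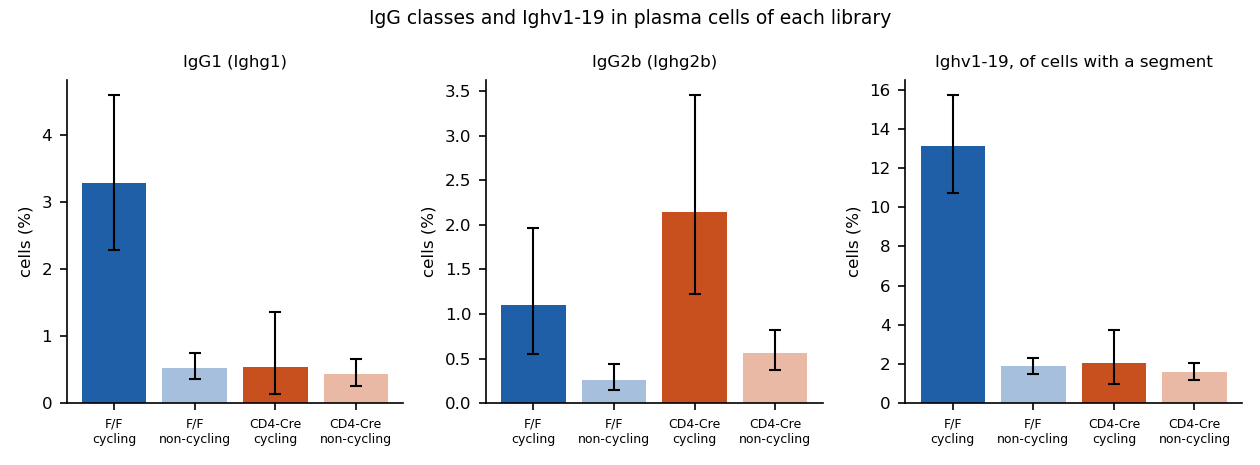
Share of cells (percent, bars from 0) assigned to IgG1, to IgG2b and, of cells with a heavy segment, to Ighv1-19, in cycling plasmablasts (dark) and non-cycling plasma cells (light) of the F/F (blue) and CD4-Cre (orange) libraries, with exact 95% intervals for counting error. In F/F, members stand above non-cycling cells for IgG1 (3.29% against 0.531%) and Ighv1-19 (13.1% against 1.89%), and in CD4-Cre for IgG2b (2.14% against 0.563%).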

How the data were processed

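Per the labels, lamina propria cells of 2 pools were run as 10x 3′ gene expression libraries, sequenced towards 50000 read pairs per cell. The deposited UMI counts were made by the authors with Cell Ranger 7.2.0, per the file headers and the submitters' processing notes, which also name Seurat 5.0.1 and mm10 (GRCm38). The annotation release of the counting is not given in the sources used here. The count matrices held 32285 genes and 222838658 (F/F) and 200580083 (CD4-Cre) UMIs. Cells had at least 1000 UMIs, 500 genes and at most 10% mitochondrial UMIs. The median depth of kept cells was 15319.5 and 14031 UMIs, and free RNA was read from 56596 and 59955 barcodes of 10 to 100 UMIs. No doublet caller was run, and barcodes with a UMI of another lineage were left out as an alternative.

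UMIs were summed over the cells of a class in each library and divided by those outside immunoglobulin genes. For members against non-cycling cells, genes needed 20 UMIs over both classes and both libraries together. For CD4-Cre against F/F, they needed 20 UMIs over the members of both libraries. Intervals are exact 95% intervals (Poisson sums compared by their binomial split, Clopper-Pearson for shares), and a count of 0 was taken as 3 for a bound. With 1 library per genotype no test between groups was possible and no p-value is given. The ratio script was tested on simulated data. Named genes were the 12 per direction with the largest smaller log2 ratio of the 2 libraries (at least 50 CPM), the 8 per direction whose interval between the libraries was farthest from 0 (at least 100 UMIs), and the most abundant or most different members of each of 34 gene lists. Genes outside this rule were named after their values were seen: Irf4, Prdm1, Sdc1, Cdc20, Cdk1, Mcm5, Mcm6, Ung, Pttg1, Foxm1, Mybl2, E2f1, E2f8, Myc, Aurka, Shmt1, Idi1, Ssr1, Ssr2, Rpn1, Derl3, Il5ra, Bak1, Ccr9, Vim, Ms4a1, Mybl1, Fos, Snhg1 and 6 clustered histones. Members, lists and comparisons were chosen with earlier results of these data known. Gene positions are from GENCODE M21 on GRCm38, and promoters from RefSeq (GRCm38.p6, 27025 genes). Python 3.11.15, numpy 2.4.6, scipy 1.17.1, pandas 2.3.3 and matplotlib 3.10.9 were used. Some genes that the rule names are not reported here.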

Additional observations from a re-analysis of the deposited data

How the results depend on the processing

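No paired analysis was possible because each genotype is 1 library, and for the same reason no replicate could be left out. The share of members among plasma cells, 12.1% in F/F and 11.1% in CD4-Cre, was 6.81% and 7.1% with an immunoglobulin minimum of 30%, 9.73% and 8.65% with at least 2 UMIs of Mki67 and of Top2a, 31.6% and 31.5% with 1 UMI of either, 6.58% and 6.59% after thinning, and 11.3% in F/F without barcodes with another lineage. The share among kept cells, 7.96% and 5.98%, was in that order 3.98% and 3.52%, 6.38% and 4.65%, 20.7% and 16.9%, 5.25% and 4.85%, and 10.1% and 8.98%. Genes higher and lower in members than in non-cycling cells numbered 1507 and 2730 on the main scale. They numbered 5934 and 519 on the scale of CPM of all UMIs, and 11271 and 82 per cell (the per cell scale was chosen after seeing the data). With an immunoglobulin minimum of 30%, 1681 were lower. Genes higher and lower in CD4-Cre, 621 and 541 (53.4% higher), were 101 and 148 (40.6%) with at least 100 UMIs and 1325 and 1218 with no minimum, 410 and 585 (41.2%) without barcodes with another lineage, and 570 and 1027 (35.7%) without the 5 cells of each library with the most UMIs of each gene. IgG in F/F members was 3.19% with a class limit of 90%, kappa 97.5% with 50%, and Ighv1-19 16.3% with at least 20 UMIs and 70%. In CPM of all UMIs the replication sums were 2112 and 2261 and the mitosis sums 5478 and 5167. Among ratios past 1.5-fold on the main scale, those that turned from negative to positive on that scale were of Cd28 (0.07 in F/F), Btg2 (0.07 and 0.14), Gramd1a (0.06 and 0.03), Itgal (0.01 and 0.04), Jund (0.05 in CD4-Cre), Tnfrsf13b (0.07 in F/F), Cd79b (0.02 and 0.04), Txndc5 (0.03 and 0.12) and Gramd1c (0.11 in F/F). Smaller ratios turned as well and are not listed, such as that of Mcl1, from -0.50 to 0.24 in F/F and from -0.52 to 0.23 in CD4-Cre. Against 183 and 153 non-cycling cells of like depth outside immunoglobulin genes, chosen after seeing the data, Cyp51 in F/F was -0.0049. Of 2531 values of named genes under alternatives, 2367 kept their call, 149 moved and 15 turned. This total includes 255 values under each of the 2 alternative gene minimums, which cannot change a ratio, so those calls were kept in advance. Against the non-cycling cells of like depth outside immunoglobulin genes, 191 values kept their call, 40 moved and 1 turned. In CPM of all UMIs, 185 kept it, 57 moved and 14 turned. A turn was counted only for ratios past 1.5-fold on the main scale. A smaller ratio that stayed under 1.5-fold was counted as kept, whatever its sign. The scale alone causes the turns in CPM of all UMIs, and the cause of the others was not tested.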
